A study of Mus musculus with 108 samples.

Results

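The genes Ybx2, Zar1, Zar1l, Cpeb1, Dazl, Ddx6, Lsm14b, Patl2, Eif4enif1 and Eif4e1b encode proteins that store maternal mRNAs in the mouse oocyte or set when those mRNAs are translated. They were listed by symbol for these roles, by a rule that sets no threshold on a measured value but was written with earlier results of these data known, and all 10 were found among the 55573 gene IDs of the count files. Each library held the RNA of 1 oocyte, taken either from a female whose oocytes lack Exosc10, a 3′ to 5′ ribonuclease of the nuclear RNA exosome (cKO), or from a control female. The polyA libraries, made from RNA caught on oligo(dT) beads, held 15 cKO and 7 control oocytes with an intact germinal vesicle (GV), 11 and 8 oocytes after 3 h of culture (GV3h), and 15 and 8 eggs at the second meiotic metaphase (MII). The RiboMinus libraries, primed with random hexamers and so not dependent on a poly(A) tail, held, at GV, 7 cKO and 8 control oocytes, and at MII 4 and 3 eggs. GV and GV3h oocytes were kept ex vivo in M2 medium, and MII eggs came from the oviduct. The labels give no strain, age, hormone treatment or control allele, and they do not name the promoter that removed Exosc10. Each of the 23 females gave oocytes of 1 genotype, stage and library type, and the 3 RiboMinus MII control eggs all came from 1 female, so in every comparison that uses them that female cannot be told apart from the genotype or the stage.

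As background, a fully grown oocyte stops transcription and matures on mRNAs that it made earlier. Many of these mRNAs are kept silent with short poly(A) tails inside particles of RNA-binding proteins. YBX2, ZAR1 and ZAR1L coat and stabilise the stored mRNAs. CPEB1 binds the cytoplasmic polyadenylation element (CPE) in 3′ untranslated regions (3′ UTRs) and, with DAZL, governs tail lengthening and translation. The helicase DDX6 acts with LSM14 and PAT1 family proteins and with the eIF4E-binding protein 4E-T, encoded by Eif4enif1, to repress translation, while Eif4e1b encodes an oocyte form of the cap-binding protein. Oligo(dT) capture needs a tail of some length, so an mRNA can be read differently in the 2 library types.

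The mRNAs of storage factors can themselves carry CPEs, so the annotated 3′ UTR of the principal transcript of each gene was searched on the transcript strand for the CPE letters TTTTAT and TTTTAAT (GENCODE M21 models, mouse build GRCm38). At least 1 CPE was present in Cpeb1 (4), Dazl (6), Ddx6 (7), Lsm14b (2), Ybx2 (1) and Eif4enif1 (1), which is 6 of the 10 genes. The same letters were found in 54.4% of the 20716 genes with an annotated 3′ UTR of any length. No match was found in Patl2, Zar1, Zar1l and Eif4e1b, whose annotated 3′ UTRs are 366, 146, 14 and 1055 bases long. A CPE followed within 100 bases by the poly(A) signal AATAAA or ATTAAA was found in Cpeb1 and Eif4enif1, and in 26.9% of all genes. A 30-base window is shown for 5 of the genes with a match, so that their polyA readings can be set beside the letters. The capitals mark the CPE. Where a CPE has a poly(A) signal after it that CPE is shown, otherwise the one nearest the annotated end. The 3′ ends used in these oocytes were not measured.
Cpeb1, chr7:81347476-81347505, minus strand: gttgatagaagtTTTTAATcacagtcacag
Dazl, chr17:50279752-50279781, minus strand: aagtcaaaattcTTTTATgtcaccaagtca
Ybx2, chr11:69941532-69941561, plus strand: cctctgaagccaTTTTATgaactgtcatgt
Ddx6, chr9:44639892-44639921, plus strand: taagccatgttaTTTTAATtggatactttt
Lsm14b, chr2:180034634-180034663, plus strand: aatggaaccaaaTTTTATttggcacatgtg

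Total gene counts ran from 4638718 to 8735914 in the polyA libraries and from 12319658 to 62675760 in the RiboMinus libraries, where the highest total, of the RiboMinus MII cKO oocyte V1166_1, was well above the next. Exosc10, the check of the genotype labels, was at 43.0 to 166 CPM (counts scaled to a common library size) in every control oocyte and at 0 to 8.29 CPM in every cKO oocyte. Counts of the added spike-in RNA were not analysed here, so every level is a share of its own library. The 9 oocyte markers summed to at least 5310 CPM in each oocyte. The 11 cumulus and granulosa markers summed to 19.9 to 141 CPM, led by Cyp19a1 in all groups but RiboMinus GV cKO, where Kitl led, and were highest in polyA MII eggs of both genotypes, where their part in the differences between stages was not tested. The 3 blood markers summed to 0 to 13.8 CPM in RiboMinus MII cKO eggs (Ptprc highest, mean 3.63 CPM), to 0 in the RiboMinus MII controls and to at most 1.13 CPM in every other group, and their part in the RiboMinus MII genotype differences was not tested. A gene is called changed where the adjusted p of edgeR's quasi-likelihood test, with Benjamini-Hochberg adjustment over all genes tested and with oocytes as replicates, is below 0.05. Oocytes of 1 female are not independent, so the p from counts summed per female stands beside the results. The RiboMinus MII controls came from 1 female, V1145, so sums per female leave 1 sample there and no measure of the spread between such females. In each comparison that uses this group, that p takes its spread from the other females alone. All 10 genes passed the filter on low counts in each of the 17 comparisons. The lowest count was 9, for Ybx2 in a polyA MII oocyte.

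**Figure D1:**
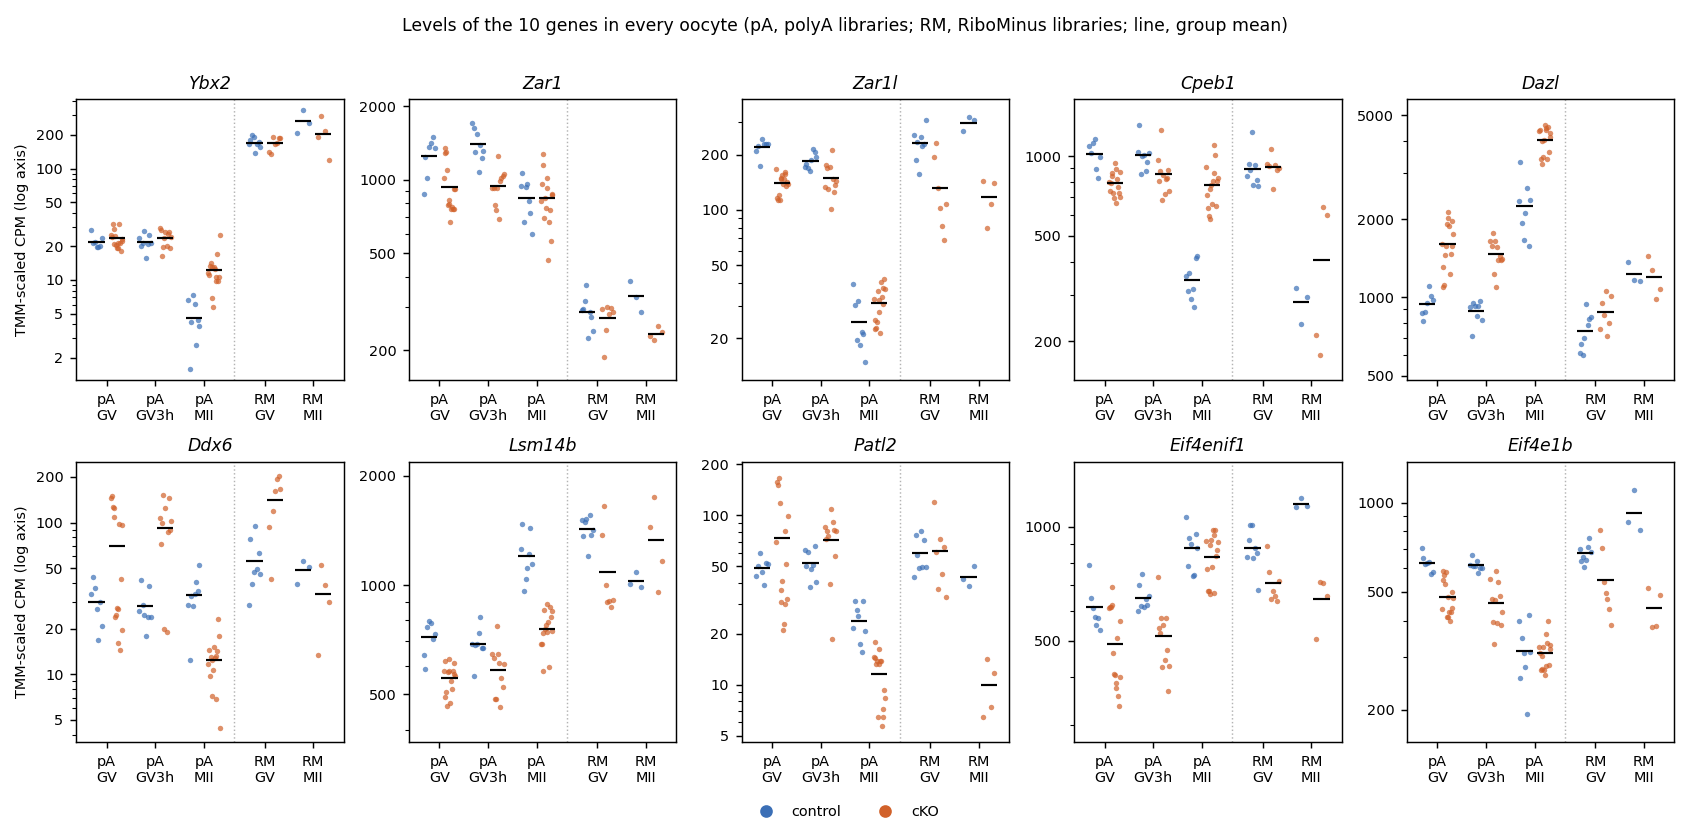
TMM-scaled CPM of the 10 genes in each of 86 oocytes on a log axis, by library type and stage, with controls in blue, cKO in orange and the group mean as a line. In the polyA libraries Zar1l lies far lower at MII than at GV in both genotypes and Ybx2 in controls, while Ybx2 in cKO overlaps between the stages; in RiboMinus controls neither lies lower at MII, and Dazl lies highest in polyA MII cKO eggs.

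In control GV oocytes most of the 10 mRNAs were abundant, and Ddx6 and Patl2 were scarce in both library types. Per kilobase of exon, polyA CPM were 360 ± 65.3 (SD, n = 7) for Zar1 and 278 ± 19.2 for Eif4e1b. Lsm14b, Dazl, Zar1l and Cpeb1 followed at 242 to 248 CPM per kilobase. Among these 6 genes each overlapped the next in its range over the oocytes, so these ranges did not separate neighbours in the order. The order within single oocytes was not tested. Eif4enif1 at 96.1 ± 13.8, Patl2 at 20.1 ± 2.86, Ybx2 at 11.7 ± 1.51 and Ddx6 at 3.71 ± 1.16 CPM per kilobase each lay below the gene before them with no overlap. In RiboMinus GV controls (n = 8) Lsm14b was highest at 495 ± 40.5 CPM per kilobase, above Eif4e1b at 299 ± 21.9 with no overlap. Zar1l, Cpeb1 and Dazl came next at 258, 214 and 195, each overlapping its neighbour, and Ddx6 was again last at 6.93 ± 2.69 CPM per kilobase. The 2 library types were normalised apart and their levels were not tested against each other. Set side by side, Ybx2 stood at 11.7 CPM per kilobase in polyA and 90.8 in RiboMinus libraries of control GV oocytes, and Zar1 at 360 and 83.0.

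From GV to MII the control oocytes showed a split between the library types. In the polyA libraries 9 of the 10 genes changed, 3 higher and 6 lower, against 63.4% of all genes tested (30.1% higher, 33.3% lower). With counts summed per female 8 of the 10 were called, against 43.1% of all genes. In the RiboMinus libraries 6 of the 10 changed, 4 higher and 2 lower, against 30.9% of all genes (15.0% higher, 15.8% lower), and 5 with counts summed per female, against 27.9%, where the MII side is the 1 female V1145. The difference between the polyA change and the RiboMinus change was itself called for 6 of the 10, against 49.6% of all genes tested. It was more positive in polyA libraries for 2 (24.5% of all genes) and more negative for 4 (25.1%). With counts summed per female it was called for 4, against 29.2%. With 10 genes chosen by name, these shares were not tested against those of all genes, and what follows is about single genes. The test of a difference between the library types took its TMM factors over both together. Each single change was scaled within its own library type, so such a difference is not the plain subtraction of the 2 changes.

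Among the proteins that coat stored mRNAs, Zar1l, an oocyte zinc-finger RNA-binding protein, fell most in the polyA libraries. Its polyA level in controls was 173 CPM in the lowest, 228 in the median and 244 in the highest of 7 GV oocytes, and 14.8, 21.3 and 39.3 CPM in 8 MII eggs. The groups lay far apart, and the log2 difference was -3.16 (SE 0.18, edgeR adjusted p 4.02e-11, counts summed per female adjusted p 0.000165). In RiboMinus controls it stood at 157, 232 and 309 CPM at GV (n = 8) and at 268, 320 and 309 CPM in the 3 MII eggs. The RiboMinus groups overlapped, and their log2 difference of 0.37 (SE 0.16) had an edgeR adjusted p of 0.0802, or 0.50 and 0.0419 without the female V1133. Limma voom, with a random term for the female, also called it (0.40, adjusted p 0.0175). The 2 changes differed by -3.37 (SE 0.25, edgeR adjusted p 6.87e-13, counts summed per female adjusted p 0.0002).

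Ybx2, the germ-cell Y-box protein that packages mRNA, showed the same split. In polyA control oocytes it was at 19.8, 21.4 and 27.8 CPM (lowest, median and highest of 7) at GV and at 1.58, 4.29 and 7.27 CPM (8 eggs) at MII, a log2 difference of -2.28 (SE 0.27, edgeR adjusted p 5.71e-07). In RiboMinus controls the 8 GV oocytes ran from 137 to 200.4 CPM around a median of 170.1, and the 3 MII eggs were at 209, 333 and 257 CPM. There the eggs were all above the oocytes, and Ybx2 rose by 0.64 (SE 0.13, edgeR adjusted p 0.00105). The difference between the changes was -2.75 (SE 0.27, edgeR adjusted p 4.6e-10, counts summed per female adjusted p 8.06e-05). Zar1, the relative of Zar1l, was at 869.6 to 1491 CPM in polyA GV controls and at 599 to 1061 in polyA MII controls, a difference of -0.59 (SE 0.14, edgeR adjusted p 0.000996) between overlapping groups. This call for Zar1 was lost with counts summed per female (-0.50, adjusted p 0.0969) and without the female V889 (-0.30, edgeR adjusted p 0.163). Its RiboMinus difference was 0.22 (SE 0.13, edgeR adjusted p 0.233). The 2 changes of Zar1 differed by -0.64 (SE 0.21, edgeR adjusted p 0.0112, counts summed per female adjusted p 0.275), a call that was lost without the female V889 or V1133 (-0.34 and -0.49, edgeR adjusted p 0.232 and 0.0843) and without the egg V1145_2 (-0.52, edgeR adjusted p 0.0658).

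Cpeb1, the CPE-binding protein, fell alike in both library types. In polyA controls it went from 824 to 1156 CPM at GV to 269.8 to 422 CPM at MII (log2 difference -1.58, SE 0.11, edgeR adjusted p 3.23e-10). In RiboMinus controls it went from 768 to 1227 CPM to 320, 234 and 295 CPM in the 3 eggs (-1.66, SE 0.15, edgeR adjusted p 7.82e-08). In neither did a GV oocyte overlap an MII egg, and the polyA call held with counts summed per female (adjusted p 0.000269). The difference between the 2 changes was 0.26 (SE 0.18, edgeR adjusted p 0.25).

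Dazl, a germ-cell activator of translation that binds 3′ UTRs, rose in both. Its polyA level in controls was 815 to 1103 CPM at GV and 1581 to 3297 CPM at MII, a log2 difference of 1.236 (SE 0.14, edgeR adjusted p 2.48e-07). Its RiboMinus level was 601 to 940.2 CPM at GV and 1159, 1162 and 1368 CPM at MII, a log2 difference of 0.72 (SE 0.13, edgeR adjusted p 0.000309). The polyA rise was larger by 0.68 (SE 0.21, edgeR adjusted p 0.00694), a call that was lost with counts summed per female (0.82, adjusted p 0.067), without the female V1133 (0.46, edgeR adjusted p 0.0793) and with library totals in place of TMM scaling (0.20, edgeR adjusted p 0.42).

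In the repressor group Lsm14b moved in opposite directions. LSM14B is an RNA-binding partner of DDX6. Its polyA level in controls was 589 to 795 CPM at GV and 964 to 1472 CPM at MII (log2 difference 0.74, SE 0.11, edgeR adjusted p 5.35e-06), while its RiboMinus level was 1200.0 to 1565 CPM at GV and 990.0 to 1088 CPM at MII (-0.47, SE 0.11, edgeR adjusted p 0.00202). The RiboMinus call was lost with all groups in one fit (-0.48, edgeR adjusted p 0.0823). In each library type the stages did not overlap. The difference between the changes was 1.39 (SE 0.16, edgeR adjusted p 6.64e-09, counts summed per female adjusted p 0.000489). Patl2, the oocyte PAT1 protein, fell in polyA controls from 38.6 to 60.1 CPM to 15.6 to 31.3 CPM (-1.04, SE 0.17, edgeR adjusted p 2.8e-05). In RiboMinus controls its difference was -0.46 (SE 0.20, edgeR adjusted p 0.0808), and limma voom, with a random term for the female, called it (-0.44, adjusted p 0.0353). Ddx6 was not called in either (polyA 0.15, SE 0.25; RiboMinus -0.19, SE 0.26).

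Of the cap-linked genes, Eif4e1b, the oocyte cap-binding protein, fell in the polyA libraries and rose in the RiboMinus libraries. Its polyA level in controls was 575 to 705 CPM at GV and 194 to 419 CPM at MII (log2 difference -1.001, SE 0.13, edgeR adjusted p 1.75e-06). Its RiboMinus level was 608 to 763 CPM at GV and 858, 1102 and 807 CPM at MII (0.45, SE 0.11, edgeR adjusted p 0.00492), a call that was lost without the egg V1145_3 (0.30, edgeR adjusted p 0.0778) and with all groups in one fit (0.45, edgeR adjusted p 0.0697). The difference between the changes was -1.28 (SE 0.19, edgeR adjusted p 8.31e-07, counts summed per female adjusted p 0.00178). Eif4enif1, the 4E-T repressor, rose in both, by 0.51 (SE 0.10, edgeR adjusted p 0.000179) in polyA and by 0.39 (SE 0.11, edgeR adjusted p 0.0107) in RiboMinus controls. With library totals the polyA value was 0.13 (edgeR adjusted p 0.324), the RiboMinus value was 0.38 (adjusted p 0.0699) from counts summed per female, and without the female V1133 the RiboMinus value was 0.27 (edgeR adjusted p 0.135).

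**Figure D2:**
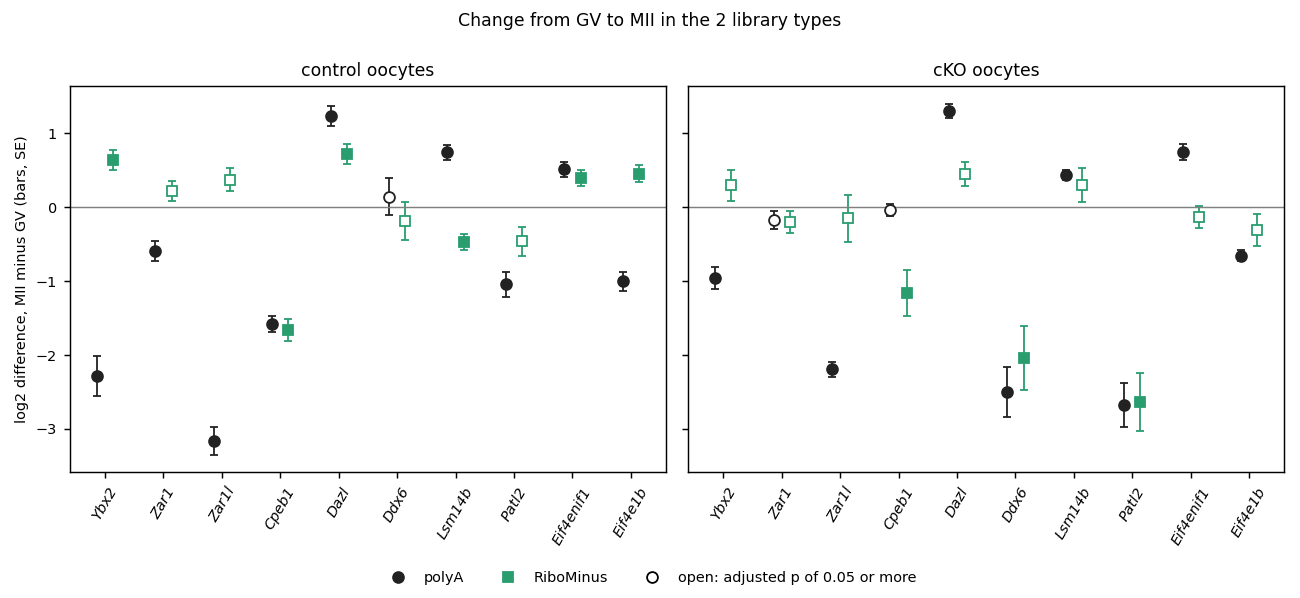
Log2 difference of MII minus GV for each gene in polyA (black circles) and RiboMinus libraries (green squares), controls on the left and cKO on the right, with SE bars and open symbols where the adjusted p was 0.05 or more. In controls Zar1l sits at -3.16 and 0.37 in the 2 library types and Cpeb1 at -1.58 and -1.66, and in cKO Patl2 and Ddx6 are low in both.

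After 3 h of culture none of the 10 genes was called against GV in either genotype of the polyA libraries. The share called among all genes was 0.519% in controls and 0.602% in cKO. By edgeR 1 of the 10 had an unadjusted p below 0.05 in controls (Zar1l, log2 difference -0.25, SE 0.08, adjusted p 0.233) and 0 in cKO. DESeq2 also called 0 in each genotype, against 1.16% and 1.56% of all genes, and limma voom 0, against 0.212% and 0.07%. Counts summed per female gave 0, against 0.0124% and 0.0% of all genes. Both counts changed when 1 female was left out: without V856 the control difference of Zar1l was called (-0.33, edgeR adjusted p 0.0442), and without V857 the cKO difference of Ddx6 was called (1.236, edgeR adjusted p 0.0391). The test of whether the 3 h change differed by genotype called 0 of the 10, against 0.0959% of all genes (0.0768% more positive and 0.0192% more negative in cKO). There 1 gene had an unadjusted p below 0.05, and DESeq2, limma voom and counts summed per female called 0, against 0.384%, 0.0% and 0.0% of all genes.

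Between genotypes, several of these mRNAs were lower in cKO oocytes before maturation, Ddx6 and, in polyA libraries, Dazl were higher, and the pattern at MII was different. At polyA GV 8 of the 10 genes were called, 2 higher and 6 lower in cKO, against 40.4% of all genes tested (22.0% higher, 18.5% lower). At polyA GV3h 8 were called, again 2 higher and 6 lower, against 55.5% (29.4% and 26.1%). At polyA MII 6 were called, 3 in each direction, against 37.6% (19.0% and 18.6%). In the RiboMinus libraries 4 were called at GV, 1 higher and 3 lower, against 37.6% (21.2% and 16.5%), and 4 at MII, all lower, against 23.7% (13.9% and 9.78%). The median log2 difference of the 10 genes was -0.37, -0.25, -0.06, -0.06 and -0.46 in these 5 comparisons, beside 0.06, 0.03, 0.04, 0.00085 and 0.13 over all genes tested. With counts summed per female the calls numbered 0, 6, 6, 0 and 1, against 0.00555%, 39.7%, 18.3%, 0.0149% and 7.54% of all genes. At GV, with 2 females in each group, edgeR on those sums gave 3 genes with an unadjusted p below 0.05 in polyA and 2 in RiboMinus libraries, and limma voom, with a random term for the female, called 3 and 2. Over all genes voom called 9.44% and 17.8%. The log2 differences at polyA GV from the sums were near those from oocytes, at -0.74 beside -0.67 for Zar1l and -0.46 beside -0.40 for Lsm14b.

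**Figure D3:**
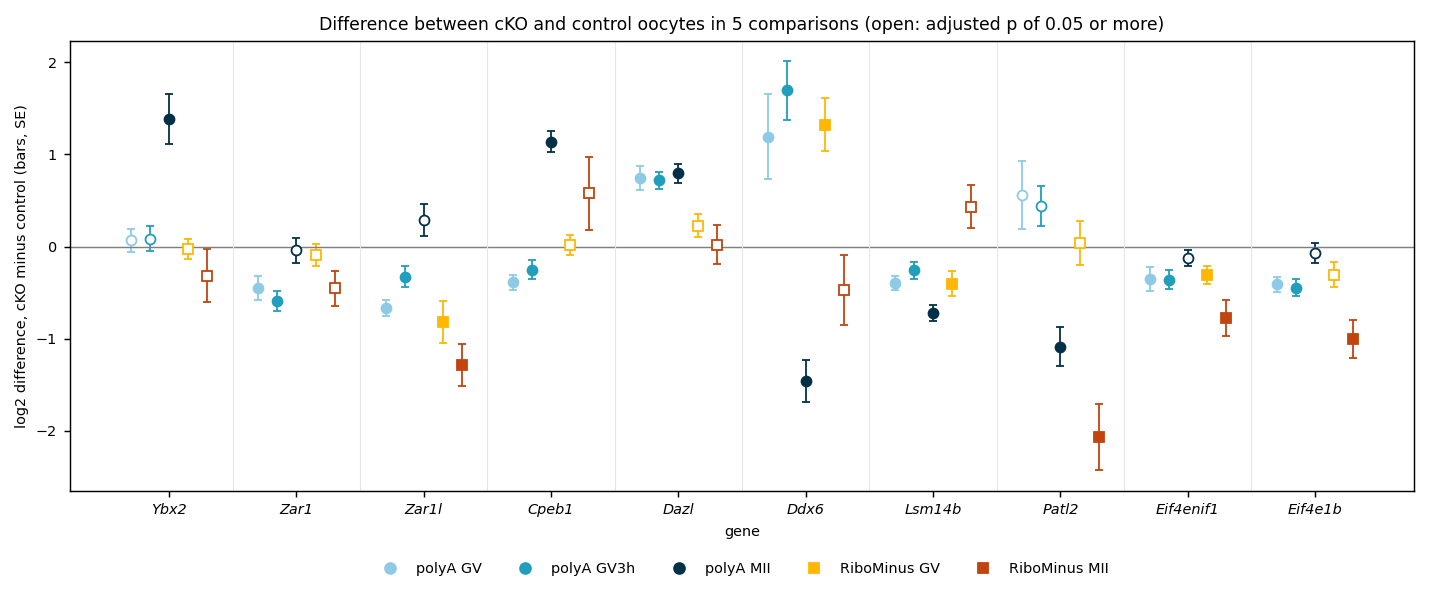
Log2 difference of cKO minus control for each gene in the 5 comparisons (polyA as circles, RiboMinus as squares), with SE bars and open symbols where the adjusted p was 0.05 or more. Dazl is 0.72 to 0.79 in the 3 polyA comparisons, and Ddx6 is above 0 at GV and GV3h and at -1.46 in polyA MII eggs.

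Of the proteins that coat mRNA, Zar1l was lower in cKO in 4 of the 5 comparisons. At polyA GV the 15 cKO oocytes had 114 to 166 CPM around a median of 143, below all 7 controls at 173 to 244 CPM (log2 difference -0.67, SE 0.09, edgeR adjusted p 3.53e-06). Counts summed per female gave adjusted p 0.162 for it. At GV3h the difference was -0.33 (SE 0.11, edgeR adjusted p 0.0164, counts summed per female adjusted p 0.0434), and it was lost with library totals (-0.16, edgeR adjusted p 0.223) and without the female V946, V993 or V995 (edgeR adjusted p 0.0559, 0.155 and 0.249). With a block of neighbouring female numbers added to the counts summed per female it was also lost (-0.32, edgeR adjusted p 0.0694). At RiboMinus GV it was -0.82 (SE 0.23, edgeR adjusted p 0.011), with female means of 186 (V1126) and 90.4 CPM (V1131) in cKO against 209 and 253 CPM. Without V1131 that value was -0.31 (edgeR adjusted p 0.464), without V1126 -1.37 and without the control female V1133 -0.68 (edgeR adjusted p 0.131). In RiboMinus MII eggs it was at 143, 79.9, 108 and 141 CPM in cKO and at 268, 320 and 309 CPM in controls, a log2 difference of -1.28 (SE 0.23, edgeR adjusted p 0.00232, counts summed per female adjusted p 0.0632). No cKO egg reached the lowest control. At polyA MII, where the medians were 32.2 and 21.3 CPM, it was 0.29 (SE 0.17, edgeR adjusted p 0.2), and 0.51 without the control female V836 (edgeR adjusted p 0.0239).

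Ybx2 differed between genotypes in 1 comparison. The 15 cKO eggs at polyA MII had 5.76, 11.6 and 25.2 CPM (lowest, median, highest) and the 8 controls 1.58, 4.29 and 7.27 CPM, a log2 difference of 1.39 (SE 0.27, edgeR adjusted p 0.000199, counts summed per female adjusted p 0.00924). The ranges overlapped, while the 3 cKO female means (11.4 to 13.7 CPM) were all above the 3 control means (4.10 to 5.03 CPM). Elsewhere its difference was 0.07, 0.09, -0.03 and -0.31 with edgeR adjusted p from 0.47 to 0.856. Zar1 was lower in cKO at polyA GV (-0.45, SE 0.13, edgeR adjusted p 0.00886) and GV3h (-0.59, SE 0.10, edgeR adjusted p 5.36e-05). The GV value rested on the females V888 and V889: it was -0.07 without V888 and -0.21 without V889 (edgeR adjusted p 0.668 and 0.432), and -0.29 with library totals (edgeR adjusted p 0.0916). The GV3h value held with counts summed per female (adjusted p 0.00327). There the cKO female means of Zar1 were 846 to 1021 CPM and the control means 1249 to 1666 CPM. In RiboMinus MII eggs the cKO range of 219.3 to 252.3 CPM was below the control range of 286 to 384 CPM, and the difference of -0.45 (SE 0.19) had an edgeR adjusted p of 0.108.

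In the polyA libraries Cpeb1 changed side between the stages. In cKO it was lower at polyA GV (665 to 940.5 CPM against 824 to 1156, log2 difference -0.39, SE 0.08, edgeR adjusted p 0.00044, counts summed per female adjusted p 0.277). At GV3h it was -0.25 (SE 0.10, edgeR adjusted p 0.0425). That small difference was lost with counts summed per female (-0.33, adjusted p 0.077), with DESeq2 size factors (-0.24, edgeR adjusted p 0.0538), with library totals (-0.08, edgeR adjusted p 0.555) and without the female V951, V983, V993 or V995 (edgeR adjusted p 0.19, 0.136, 0.267 and 0.0655). In polyA MII eggs it was higher in cKO: the 15 eggs had 581, 778 and 1104 CPM and the 8 controls 269.8, 334 and 422 CPM (lowest, median, highest). No egg of one genotype reached the other, and the log2 difference was 1.14 (SE 0.12, edgeR adjusted p 1.85e-08, counts summed per female adjusted p 0.00344). At RiboMinus GV the difference of Cpeb1 was 0.02 (SE 0.11, edgeR adjusted p 0.899), with means of 911 CPM in cKO and 895 CPM in controls. In RiboMinus MII eggs the 2 cKO females differed: the eggs of V1166 had 211 and 179 CPM and those of V1167 641 and 598 CPM, on either side of the 3 controls at 234 to 320 CPM. The difference there was 0.58 (SE 0.39, edgeR adjusted p 0.32), and without V1166 it was 1.18 (edgeR adjusted p 0.00117).

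Dazl was higher in cKO in all 3 polyA comparisons by a similar amount. The log2 difference was 0.74 (SE 0.13, edgeR adjusted p 7.91e-05) at GV, 0.72 (SE 0.09, edgeR adjusted p 9.26e-07) at GV3h and 0.79 (SE 0.11, edgeR adjusted p 1.67e-06) at MII. The counts summed per female gave adjusted p 0.224, 0.000924 and 0.0152. At GV3h the 11 cKO oocytes (1096 to 1773 CPM) were all above the 8 controls (712 to 973 CPM), and at MII all cKO female means (3325 to 4376 CPM) were above the control means (1973 to 2823 CPM). At GV the value was 0.45 without the female V888 (edgeR adjusted p 0.00209). In the RiboMinus libraries the difference was 0.23 (SE 0.12, edgeR adjusted p 0.145) at GV, called with library totals (0.33, edgeR adjusted p 0.0388), and 0.02 (SE 0.21, edgeR adjusted p 0.96) at MII. At GV the polyA and RiboMinus genotype differences of Dazl differed by 0.49 (SE 0.18, edgeR adjusted p 0.199), so a difference between the library types was not shown, though without V857 it was 0.59 (edgeR adjusted p 0.0211). That test called 0 of the 10 genes, against 1.04% of all genes tested. By edgeR 2 of the 10 had an unadjusted p below 0.05, DESeq2 called 1 (2.2% of all genes), limma voom 0 (0.0127%) and counts summed per female 0 (0.0% of all genes).

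Ddx6, the helicase of the repressor particle, had the widest spread of the 10 genes between cKO oocytes at polyA GV and GV3h, with coefficients of variation of 75.1% and 47.0%. At polyA GV the 7 controls had 16.8 to 43.6 CPM. The 5 cKO oocytes of the female V857 had 145, 151, 127, 124 and 109.5 CPM, all above every control. The 10 oocytes of V888 ran from 14.5 to 97.5 CPM, and 8 of them were at or below 42.8 CPM. The log2 difference over all was 1.19 (SE 0.46, edgeR adjusted p 0.0421, counts summed per female adjusted p 0.285). It was 0.37 without V857, 0.80 without V889 and 1.49 without V856 (edgeR adjusted p 0.43, 0.431 and 0.0723), and 2.11 without V888. At GV3h 9 of the 11 cKO oocytes were at 72.0 to 152 CPM, above all 8 controls at 17.9 to 42.1 CPM, and 2 oocytes of V983 were at 19.9 and 18.9 CPM. That log2 difference was 1.70 (SE 0.32, edgeR adjusted p 0.000113, counts summed per female adjusted p 0.00127). At RiboMinus GV it was 1.33 (SE 0.29, edgeR adjusted p 0.00308), with female means of 85.3 (V1126) and 182 CPM (V1131) in cKO and 48.2 and 63.1 CPM in controls. Without V1131 it was 0.62 (edgeR adjusted p 0.354).

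At MII Ddx6 was lower in cKO. The 15 polyA cKO eggs had 4.44, 12.8 and 23.0 CPM and the 8 controls 12.4, 33.4 and 52.9 CPM (lowest, median, highest), with a log2 difference of -1.46 (SE 0.23, edgeR adjusted p 1.31e-05, counts summed per female adjusted p 0.00802). The 3 cKO female means were 11.4 to 13.1 CPM and the 3 control means 20.4 to 44.3 CPM. In RiboMinus MII eggs the cKO values of 13.5, 53.0, 38.8 and 30.2 CPM overlapped the control values of 39.5, 56.3 and 50.7 CPM, and the difference of -0.47 (SE 0.38) had an edgeR adjusted p of 0.413.

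In the polyA libraries before maturation the cKO females with high Patl2 were those with high Ddx6. At polyA GV the cKO oocytes of V857 had 69.4 to 166 CPM and those of V888 21.1 to 99.6 CPM, around the 7 controls at 38.6 to 60.1 CPM. The oocytes V888_4 and V888_9 were the 2 highest of V888 for Patl2 (80.8 and 99.6 CPM) and for Ddx6 (97.5 and 96.3 CPM). The cKO oocyte V983_2 was likewise the highest of its female for both at GV3h (109 and 125 CPM). The log2 difference of Patl2 was 0.56 (SE 0.37, edgeR adjusted p 0.238) at GV, called without V888 (1.41, edgeR adjusted p 6.85e-06), and 0.45 (SE 0.22, edgeR adjusted p 0.086) at GV3h, called without V983 (0.57, edgeR adjusted p 0.000375) and with library totals (0.62, edgeR adjusted p 0.021). At RiboMinus GV it was 0.04 (SE 0.24, edgeR adjusted p 0.912), and the cKO female means of Patl2 were 72.6 (V1126) and 54.0 CPM (V1131), the opposite order to Ddx6. At MII Patl2 was lower in cKO in both library types. The polyA eggs had 5.70, 13.3 and 17.9 CPM in cKO (n = 15) and 15.6, 23.5 and 31.3 CPM in controls (n = 8), a log2 difference of -1.09 (SE 0.21, edgeR adjusted p 0.000173, counts summed per female adjusted p 0.0295) that was -0.69 without V897 (edgeR adjusted p 0.069). The RiboMinus eggs had 6.404, 14.3, 7.40 and 11.7 CPM in cKO and 42.2, 38.1 and 50.2 CPM in controls. These groups lay far apart, at -2.07 (SE 0.36, edgeR adjusted p 0.00185), with the controls from V1145 alone.

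Lsm14b was lower in cKO in the 3 polyA comparisons, most at MII. The test of whether its difference changed from GV to MII did not call it (-0.28, edgeR adjusted p 0.0981), though some settings given below did. At MII the 15 cKO eggs (578, 756 and 888.3 CPM) were all below the 8 controls (964, 1182 and 1472 CPM), with a log2 difference of -0.72 (SE 0.09, edgeR adjusted p 2.37e-07, counts summed per female adjusted p 0.00311). At GV it was -0.40 (SE 0.08, edgeR adjusted p 0.000237, counts summed per female adjusted p 0.26), and without the female V889 it was -0.32 (edgeR adjusted p 0.0514). At GV3h it was -0.26 (SE 0.09, edgeR adjusted p 0.0237), lost with counts summed per female (-0.24, adjusted p 0.111), with library totals (-0.09, edgeR adjusted p 0.437) and without the female V946, V982, V993 or V995 (edgeR adjusted p 0.139, 0.0584, 0.229 and 0.219). At RiboMinus GV the value of -0.40 (SE 0.14, edgeR adjusted p 0.0301) came with cKO female means of 1342 (V1126) and 896.7 CPM (V1131) and control means of 1472 and 1391 CPM. Without V1131 it was -0.09, without V1126 -0.69, and without V1132 or V1133 the edgeR adjusted p was 0.176 or 0.115. At RiboMinus MII the difference was 0.43 (SE 0.23, edgeR adjusted p 0.202), and 0.72 without V1167 (edgeR adjusted p 0.0237).

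**Figure D4:**
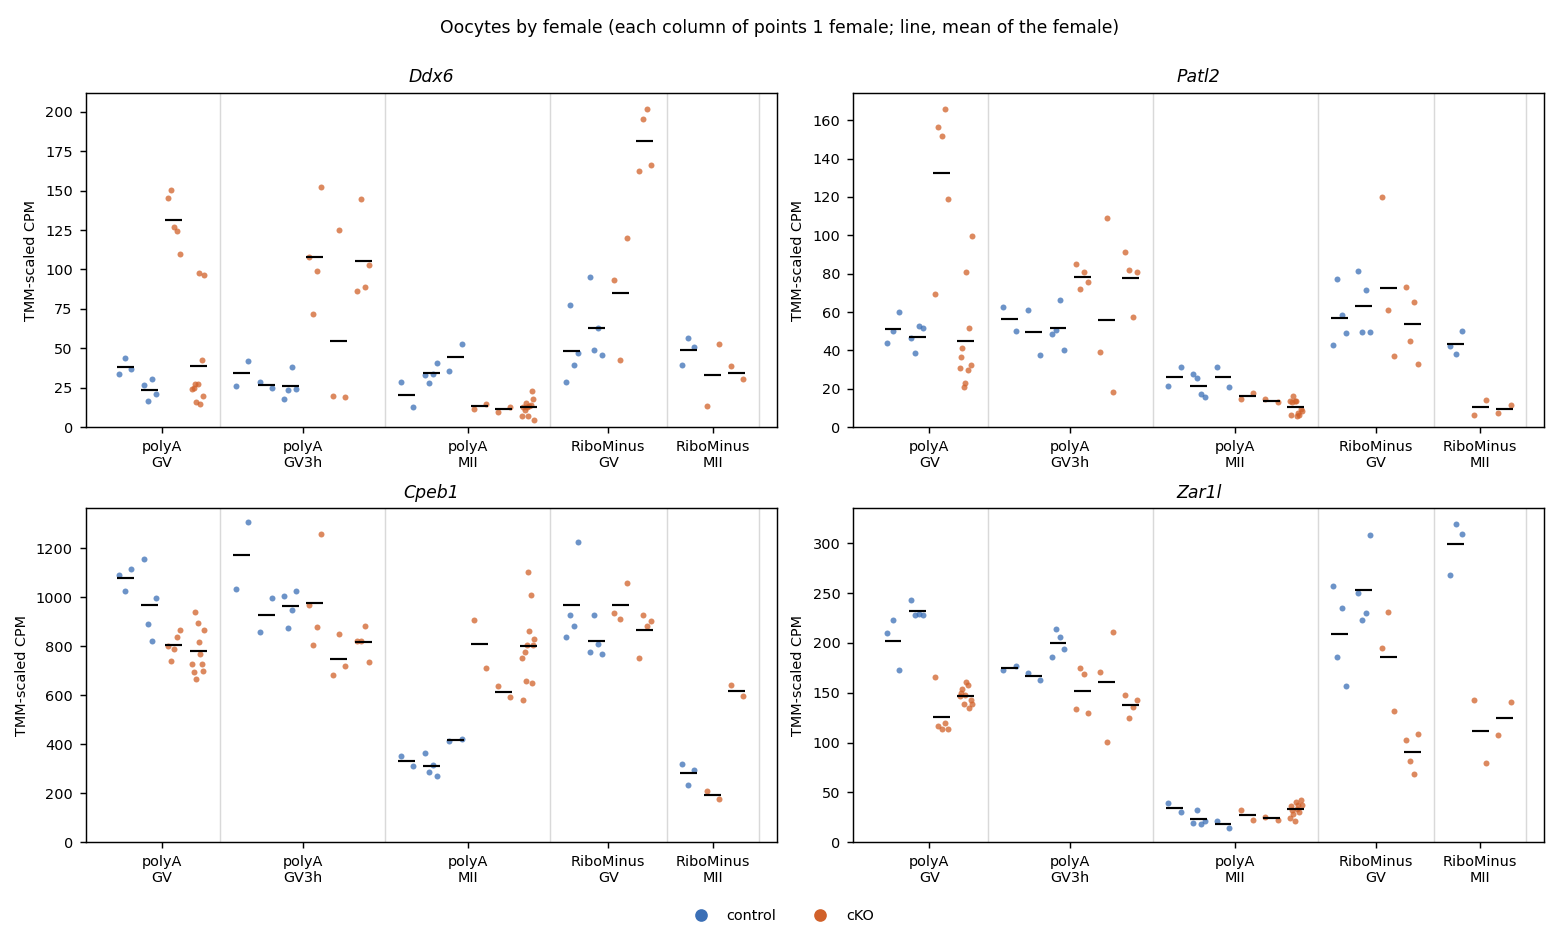
TMM-scaled CPM of Ddx6, Patl2, Cpeb1 and Zar1l in each oocyte, with 1 column of points per female, her mean as a line, controls in blue and cKO in orange. The cKO female V857 (first orange column at polyA GV) is above the other female for Ddx6 and Patl2, and the 2 cKO females at RiboMinus MII differ for Cpeb1.

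Eif4e1b was lower in cKO in the polyA libraries before maturation and in RiboMinus MII eggs. The log2 difference was -0.41 (SE 0.08, edgeR adjusted p 0.000364, counts summed per female adjusted p 0.293) at polyA GV, and -0.26 without the female V888 (edgeR adjusted p 0.028). At polyA GV3h it was -0.44 (SE 0.09, edgeR adjusted p 0.000261, counts summed per female adjusted p 0.00365), where the cKO female means were 439 to 483 CPM and the control means 605 to 642 CPM. In RiboMinus MII eggs it was at 514, 381, 385 and 486 CPM in cKO and at 858, 1102 and 807 CPM in controls, with no overlap. That difference was -1.004 (SE 0.21, edgeR adjusted p 0.00504), and counts summed per female gave adjusted p 0.202. At polyA MII it was -0.07 (SE 0.11, edgeR adjusted p 0.638), and at RiboMinus GV -0.30 (SE 0.14, edgeR adjusted p 0.0879), called without the female V1126 (-0.61, edgeR adjusted p 5.12e-05).

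Eif4enif1 was lower in cKO in 4 of the 5 comparisons. Its log2 difference was -0.35 at polyA GV (SE 0.13, edgeR adjusted p 0.0353), -0.36 at polyA GV3h (SE 0.10, edgeR adjusted p 0.00433), -0.31 at RiboMinus GV (SE 0.10, edgeR adjusted p 0.0267) and -0.77 at RiboMinus MII (SE 0.20, edgeR adjusted p 0.0137). In the RiboMinus MII eggs the 4 cKO values of 506, 713, 708 and 655 CPM were all below the 3 controls, which had a mean of 1149 and a highest value of 1188 CPM. Counts summed per female kept the GV3h call (adjusted p 0.0262) and not the others (adjusted p 0.553, 0.261 and 0.277). The polyA GV value turned to 0.02 without the female V888, was -0.55 without V857, -0.54 without V889 and -0.25 without V856 (edgeR adjusted p 0.906, 0.00022, 0.0447 and 0.248), and was -0.19 with library totals (edgeR adjusted p 0.261). The GV3h value was -0.24 without V993 (edgeR adjusted p 0.0663) and -0.18 with library totals (edgeR adjusted p 0.128). Without V1131, V1132 or V1133 the RiboMinus GV value was -0.19, -0.20 or -0.42 (edgeR adjusted p 0.535, 0.264 and 0.0537), and it was -0.21 with library totals (edgeR adjusted p 0.0987). Leaving out any 1 of the 3 control eggs gave edgeR adjusted p 0.0533 to 0.0606 at RiboMinus MII.

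In cKO oocytes the change from GV to MII took a partly different course. In the polyA libraries 8 of the 10 genes were called, 3 higher and 5 lower, against 74.8% of all genes tested (33.1% higher, 41.7% lower), and 7 with counts summed per female, against 37.7%. In the RiboMinus libraries 3 were called, all lower, against 16.1% of all genes (8.67% lower), and 0 with counts summed per female, where 0.0% of all genes were called and 3 of the 10 had an unadjusted p below 0.05 by edgeR. DESeq2 called 4 in the RiboMinus libraries, against 24.1% of all genes, and limma voom 3, against 4.65%. Zar1l fell in polyA cKO oocytes, with a log2 difference of -2.19 (SE 0.10, edgeR adjusted p 1.7e-19, counts summed per female adjusted p 0.000511), and its RiboMinus value was -0.15 (SE 0.32, edgeR adjusted p 0.786). Patl2 fell in both, at -2.68 (SE 0.30, edgeR adjusted p 7.89e-10) and -2.63 (SE 0.39, edgeR adjusted p 0.00187). Ddx6 fell in both, at -2.50 (SE 0.34, edgeR adjusted p 5.08e-08) and -2.04 (SE 0.43, edgeR adjusted p 0.00811). Without V857 the polyA value of Ddx6 was -1.64, and without V1131 the RiboMinus value was -1.33 (edgeR adjusted p 0.142), and without V1167 -2.07 (edgeR adjusted p 0.0526). Cpeb1, the third gene that fell in RiboMinus cKO oocytes, was at -1.16 (SE 0.31, edgeR adjusted p 0.0244), at -0.56 without V1166 and at -1.26 without V1131 (edgeR adjusted p 0.0652 and 0.133), and at -2.21 without V1167. Lsm14b rose in polyA cKO oocytes by 0.44 (SE 0.07, edgeR adjusted p 4.36e-07), while with library totals the value was -0.01 (edgeR adjusted p 0.859).

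The test of whether the change from GV to MII differed between the genotypes named 5 of the 10 genes in polyA libraries, 3 more positive and 2 more negative in cKO, against 14.7% of all genes tested (9.55% and 5.17%). Cpeb1 differed by 1.57 (SE 0.14, edgeR adjusted p 1.43e-11). Its polyA change was -0.04 (SE 0.08, edgeR adjusted p 0.693) in cKO and -1.58 in controls, and the cKO value depended on the scaling: with library totals it was -0.49 (edgeR adjusted p 2.39e-06). Ybx2 differed by 1.35 (SE 0.28, edgeR adjusted p 0.000677), with -0.96 in cKO and -2.28 in controls, and Zar1l by 1.00 (SE 0.19, edgeR adjusted p 0.000159). Ddx6 differed by -2.61 (SE 0.52, edgeR adjusted p 0.000296) and Patl2 by -1.61 (SE 0.43, edgeR adjusted p 0.0074), and Patl2 was lost without V889 or V897 (-1.57 and -1.24, edgeR adjusted p 0.0879 and 0.155), and was -0.97 without V857 and -2.42 without V888. With counts summed per female 0 of the 10 were called, against 0.0722% of all genes, with 5 at an unadjusted p below 0.05 by edgeR, and Cpeb1 was nearest to a call (adjusted p 0.0628). By DESeq2 6 were called, against 16.6% of all genes, and by limma voom 3, against 3.53%. Limma voom did not call Ddx6 (-2.35, adjusted p 0.0933) or Patl2 (-1.37, adjusted p 0.275). Lsm14b was at -0.28 (edgeR adjusted p 0.0981). It was called, more negative in cKO, by DESeq2 (-0.39, adjusted p 0.0142). It was also called by edgeR with DESeq2 size factors, library totals or a filter at a mean of 50 counts (edgeR adjusted p 0.0255, 0.018 and 0.0322).

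In the RiboMinus libraries the same test called 4 of the 10, 1 more positive and 3 more negative, against 14.8% of all genes (7.85% and 7.0%). Patl2 differed by -2.18 (SE 0.42, edgeR adjusted p 0.00141) and Ddx6 by -1.86 (SE 0.51, edgeR adjusted p 0.0167), which is the same side as in the polyA libraries. Ddx6 was lost without V1131 or V1132 (-1.12 and -1.67, edgeR adjusted p 0.156 and 0.07). Eif4e1b (-0.77, SE 0.24, edgeR adjusted p 0.0344) and Lsm14b (0.77, SE 0.26, edgeR adjusted p 0.0445) were each lost when any of several females or eggs was left out, with values from -1.06 to -0.48 and from 0.45 to 1.04 over the females. Cpeb1, called in the polyA libraries, was at 0.50 (SE 0.36, edgeR adjusted p 0.364) here, and at 1.12 without V1166 (edgeR adjusted p 0.00257). Counts summed per female called 0 of the 10 (0.0% of all genes), with 2 at an unadjusted p below 0.05 by edgeR, while DESeq2 called 5 (19.2% of all genes) and limma voom 1 (4.36%).

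In cKO oocytes the change from GV to MII differed between the library types for 5 of the 10 genes, 3 more positive in polyA libraries and 2 more negative, against 45.6% of all genes tested (23.0% and 22.6%), and for 1 with counts summed per female, against 12.2%. Zar1l had the largest of the negative differences, -1.80 (SE 0.26, edgeR adjusted p 1.4e-07, counts summed per female adjusted p 0.0136), and Ybx2 was at -1.01 (SE 0.26, edgeR adjusted p 0.00165), lost without V1166 (-0.71, edgeR adjusted p 0.0666). Cpeb1 was at 1.36 (SE 0.24, edgeR adjusted p 1.11e-05), between 0.76 without V1166 and 2.42 without V1167. Dazl was at 1.09 (SE 0.19, edgeR adjusted p 8.34e-06). Eif4enif1 was at 1.12 (SE 0.19, edgeR adjusted p 5.84e-06), at 0.72 without V888 (edgeR adjusted p 0.00106), and at 0.45 with library totals (edgeR adjusted p 0.0528).

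Counts were scaled by TMM factors, and with library totals in their place the median over all genes tested moved by more than 0.1 in several comparisons. In the change from GV to MII it was -0.08 with TMM and -0.46 with totals in polyA controls, and -0.17 and -0.62 in polyA cKO oocytes. The share of calls that were higher went from 47.5% to 31.6% and from 44.3% to 27.9%. In the difference between library types it was -0.04 and -0.52 in controls and -0.08 and -0.73 in cKO, with the higher share from 49.3% to 33.8% and from 50.4% to 23.7%. In the genotype comparisons at polyA GV, GV3h and RiboMinus GV the medians moved from 0.06 to 0.21, from 0.03 to 0.20 and from 0.00085 to 0.10, and the higher share from 54.3% to 70.3%, from 53.0% to 67.3% and from 56.2% to 66.3%. At polyA MII the higher share went from 50.5% to 61.9%, in the polyA test of stage by genotype from 64.9% to 52.1%, or to 49.9% with DESeq2 size factors, and in the test of genotype by library at GV from 33.7% to 52.8%. In the difference between library types in cKO the higher share was 40.1% with DESeq2 size factors. The falls of Zar1l, Ybx2, Cpeb1, Patl2 and Eif4e1b and the rises of Dazl and Lsm14b in polyA controls were called under TMM, library totals and DESeq2 size factors. Library totals moved some called values by over 1.5 times without ending the call: Lsm14b to 0.36 and Zar1 to -0.97 in polyA controls, and to 0.90 and -1.12 in the difference between library types. In that difference in cKO they gave -1.65 for Ybx2, 0.66 for Cpeb1 and 0.45 for Dazl. In the polyA change of cKO oocytes they gave 0.86 for Dazl, -1.10 for Eif4e1b and 0.30 for Eif4enif1. Between genotypes they gave -0.24 for Cpeb1, -0.25 for Lsm14b and -0.25 for Eif4e1b at polyA GV, and -0.27 for Eif4e1b at GV3h.

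Among 34 relatives of these genes (other Y-box, CPEB, LSM14, PAT1, eIF4E, eIF4G, decapping and 3′ UTR-binding proteins), 8 were higher and 8 lower of 32 tested at polyA GV in cKO. The counts were 7 and 15 of 32 at polyA GV3h, 4 and 8 of 31 at polyA MII, 7 and 8 of 33 at RiboMinus GV and 7 and 5 of 34 at RiboMinus MII. Over all genes tested 22.0% were higher and 18.5% lower in polyA GV oocytes, 29.4% and 26.1% at GV3h, 19.0% and 18.6% in polyA eggs, 21.2% and 16.5% in RiboMinus GV oocytes, and 13.9% and 9.78% in RiboMinus eggs. The medians of the relatives were -0.17, -0.27, -0.12, -0.16 and 0.09, beside 0.06, 0.03, 0.04, 0.00085 and 0.13 over all genes. Cpeb2, a CPEB paralogue, was higher in cKO by 2.59 at polyA GV (SE 0.49, edgeR adjusted p 0.000235), 2.24 at GV3h (SE 0.36, edgeR adjusted p 1.85e-05), 3.84 at RiboMinus GV (SE 0.49, edgeR adjusted p 0.000295) and 2.88 at RiboMinus MII (SE 0.66, edgeR adjusted p 0.00822). At polyA MII its difference was 0.09 (SE 0.63, edgeR adjusted p 0.921). Msi2, a Musashi RNA-binding protein, was lower at polyA GV (-2.39), GV3h (-3.79) and MII (-2.38) and RiboMinus MII (-2.89), with edgeR adjusted p of 0.0054, 0.00013, 0.00932 and 0.00757. At RiboMinus GV its difference was -1.44 (SE 0.72, edgeR adjusted p 0.121). Dcp2, the decapping enzyme, was lower in all 5 comparisons, with log2 differences from -1.75 to -0.44, with edgeR adjusted p between 3.73e-06 and 0.00152. Tacc3, reported as a partner of CPEB in oocytes, was also lower in all 5 (-0.46 to -0.88). Counts summed per female called 0, 21, 3, 0 and 4 of these genes in the same comparisons, against 0.00555%, 39.7%, 18.3%, 0.0149% and 7.54% of all genes.

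A second list held 13 mRNAs known for translation that is regulated during maturation, such as Mos, Ccnb1, Plat, Tpx2, Btg4 and Cnot7, and 2 of them, Dcp1a and Dcp2, were also in the first list. From GV to MII in polyA controls 12 of the 13 rose and 0 fell, with a median log2 difference of 1.41 beside -0.08 over all genes, of which 30.1% rose and 33.3% fell. In RiboMinus controls 1 rose and 10 fell, with a median of -0.74 beside -0.03 over all genes, of which 15.0% rose and 15.8% fell. The difference between the library types was called for 12 of the 13, all more positive in polyA libraries (24.5% of all genes), both with oocytes as replicates and with counts summed per female. In polyA cKO oocytes all 13 rose, against 33.1% of all genes (median 1.38 beside -0.17). In RiboMinus cKO eggs 2 rose and 3 fell, against 7.4% and 8.67% of all genes (median -0.21 beside 0.0022), and counts summed per female called 0. Between genotypes 1 of the 13 was higher and 6 lower in polyA GV cKO oocytes, 2 and 10 at GV3h, 2 and 4 in polyA eggs, 1 and 5 in RiboMinus GV oocytes, and 7 and 1 in RiboMinus eggs, beside the shares of all genes given above for the relatives. The medians were -0.26, -0.62, -0.09, -0.38 and 0.85, and counts summed per female called 0, 9, 4, 0 and 3. Tex19.1 was higher in cKO in all 5, by 0.65 to 2.93, against the side of most called members in the first 4. Btg4, an adaptor of deadenylation in eggs, was lower in cKO at polyA GV (-0.67), GV3h (-0.88) and MII (-1.14, SE 0.10, edgeR adjusted p 1.68e-09) and at RiboMinus GV (-0.71), and at 0.07 (SE 0.19, edgeR adjusted p 0.816) at RiboMinus MII.

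The likeness of patterns was measured as Pearson's r of mean log2 CPM over the 10 groups, each library type centred on its own mean, among 8056 genes. As a description, the genes nearest to Zar1l were Nit1 (0.992) and 2810025M15Rik (0.991), and those nearest to Ybx2 were Thyn1 and Cox7b (both 0.990). Dazl had Npm1 (0.991) and Dusp23 (0.986), Cpeb1 had Zswim4 (0.973), and Eif4e1b had Wdr12 (0.988) and Pi4ka (0.986). Ddx6 had Vps54 (0.983) and Ugp2 (0.976), Patl2 had Riox2 (0.984) and Alg13 (0.975), and Lsm14b had Ttc39c (0.980) and Rbsn (0.963). Eif4enif1 had Celf2 (0.987) and Sgo1 (0.984), and Zar1 had Adipor1 (0.970) and Srgap2 (0.954). Of the 45 pairs among the 10 genes the most alike were Zar1l and Eif4e1b (0.917), Zar1 and Eif4e1b (0.913) and Ybx2 and Zar1l (0.869), and the least alike were Ybx2 and Lsm14b (-0.883). The groups share libraries across all genes, so these values describe these libraries only.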

How the data were processed

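Raw counts of reads per gene were deposited by the authors for each of 86 single mouse oocytes, and 22 files of rRNA libraries were not used. Per the submitters' processing notes the tools were cutadapt 2.5, FastQC 0.11.8, STAR 2.7.2a, SAMtools 1.9, HTSeq 0.9.1, R 3.5.1 and DESeq2 1.24.0 with mm10; the annotation release and strand setting are not given in the sources used here. The 5 summary lines of each file were left out; reads in no gene were 5.85 to 14.17% of the polyA and 8.34 to 12.4% of the RiboMinus total. Groups and females were read from the sample titles.

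The 10 genes, the context lists and the comparisons were chosen with earlier results of these data known. Each of 17 comparisons was fitted over all genes of the groups involved with edgeR 4.0.16 (R 4.3.3; quasi-likelihood test, two-sided, TMM factors, filterByExpr, Benjamini-Hochberg adjustment, threshold 0.05), with the oocyte as replicate, and the script was tested on simulated data. Alternatives were DESeq2 1.42.0, DESeq2 size factors, library totals, no filter, counts summed per female, a filter at a mean of 50 counts, all groups in one fit, limma 3.58.1 voom with a random term for the female, a block of neighbouring female numbers, and each female, or each oocyte in groups of 5 or fewer, left out. CPM were TMM-scaled within a library type and divided by exon length in kilobases (GENCODE M21) to compare genes. For the tests, TMM factors were taken anew from the groups of each comparison. A difference between 2 changes therefore need not equal their subtraction. Precision was judged from the spread between oocytes, since reads of amplified cDNA are not independent molecules. No 2 oocytes of a group had the same counts. Named genes are all 10, the 2 genes most like each, and listed relatives called in at least 4 of the 5 genotype comparisons, of which some are shown. One like gene and 1 sequence window are not reported here.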

Additional observations from a re-analysis of the deposited data

Results flagged for a closer look

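Among 60 groups of 4 to 10 oocytes tested for a single distant value, where chance gives about 1 in 20, 2 were flagged. That is no more than chance gives at this rate, and both were for Cpeb1. In polyA GV3h controls the oocyte V951_2 had 1307 CPM and the next highest 1036 CPM. In RiboMinus GV controls the oocyte V1132_4 had 1227 CPM and the next highest 929.7 CPM.

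The change from GV to MII differed between cKO and control oocytes, by edgeR's test of the difference, for Cpeb1 (1.57), Ybx2 (1.35), Zar1l (1.00), Patl2 (-1.61) and Ddx6 (-2.615) in polyA libraries. In RiboMinus libraries it differed for Patl2 (-2.18), Ddx6 (-1.865), Eif4e1b (-0.77) and Lsm14b (0.77), where positive values are more positive in cKO.

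The change from GV to MII differed between the library types in controls for Zar1l (-3.37), Ybx2 (-2.745), Eif4e1b (-1.28), Zar1 (-0.64), Dazl (0.68) and Lsm14b (1.385). In cKO oocytes it differed for Zar1l (-1.80), Ybx2 (-1.01), Dazl (1.09), Eif4enif1 (1.12) and Cpeb1 (1.36), where positive values are more positive in polyA libraries.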

How the results depend on the processing

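Of 170 single-gene results 76 were called, and 38 of these were also called with counts summed per female, by edgeR. With counts summed per female the number of the 10 genes called was 0 in place of 8 at polyA GV, 0 in place of 4 at RiboMinus GV, 1 in place of 4 at RiboMinus MII, 0 in place of 3 for the RiboMinus cKO stage change, 0 in place of 5 and of 4 for the polyA and RiboMinus tests of stage by genotype, and 1 in place of 5 for the cKO change by library. With limma voom it was 3 at polyA GV, 2 at RiboMinus GV, and 3 and 1 for the polyA and RiboMinus tests of stage by genotype. It was 5 at polyA GV3h with library totals, 2 for the RiboMinus test of stage by genotype with no filter, and 1 for the GV genotype difference by library with DESeq2 (2.2% of all genes). Shares over all genes are not given here for library totals, no filter or the leave-out fits below. Those counts describe the dependence on the processing only. Library totals turned the polyA cKO stage change of Lsm14b to -0.0128. Leaving out V888 turned the polyA GV difference of Eif4enif1 to 0.0165, and without V857 it was -0.5545. Over the 170 results, library totals lost 10 calls with the direction kept and 1 with it turned (Lsm14b, above) and added 7, DESeq2 lost 0 and added 4, and limma voom lost 14 and added 2. The cause of these changes was not tested.

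Leaving out 1 female (or, at RiboMinus MII, 1 oocyte) gave 5 to 7 genes at polyA GV, 4 to 8 at GV3h, 5 to 7 at polyA MII, 0 to 5 at RiboMinus GV and 3 to 5 at RiboMinus MII. For stage changes it gave 0 to 1 at GV3h in each genotype, 8 to 9 at polyA MII in each genotype, 5 to 6 in RiboMinus controls and 1 to 3 in RiboMinus cKO oocytes. For the tests of stage by genotype it gave 0 at GV3h, 4 to 8 in polyA and 1 to 4 in RiboMinus libraries, and for the tests by library 4 to 7 in controls, 5 to 6 in cKO and 0 to 3 for the GV genotype difference.

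A replicate block of neighbouring female numbers on counts summed per female called 0 of the 10 genes at polyA GV and 6 at polyA GV3h. Its shares over all genes are not given here, and without the block they were 0.00555% and 39.7%. At GV3h the block lost Zar1l (-0.32, edgeR adjusted p 0.0694) and called Cpeb1, which the sums alone did not. The deviations of females with neighbouring numbers correlated at 0.3865 at GV, where the other pairs were at -0.3865. With 2 females in each group these values have the same size by construction. At GV3h neighbouring pairs were at 0.04, 0.05 and 0.09 and the others from -0.15 to 0.11. These values cannot settle whether the numbers pair the samples, and the main tests used no pairing. The block was run in these 2 comparisons only, although some females in others also had neighbouring numbers (V896 and V897, V1131 and V1132). The lowest counts per oocyte were those of Ybx2, Ddx6, Patl2 and Zar1l, at 9, 27, 38 and 95, and the SE of a gene did not always follow its counts.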
